A study of Mus musculus with 15 samples.

Results

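The genes described here are 38 interferon-stimulated genes, taken as a fixed list of mouse symbols out of the 27179 gene identifiers counted in RNA of 4T1, a carcinoma cell line of the mouse mammary gland. All 38 were found by their symbol. The populations were 5, the parental line (genotype WT) and 4 clonal populations named E1, E2, A and M, with 3 biological replicates of each, 15 libraries in all. The 4 clones carry the genotype iRFP670 expressing: parental cells were transfected with the plasmid pNLS-iRFP670, single cells were isolated, and each clone therefore descends from 1 cell. All populations grew in RPMI-1640 with fetal bovine serum and gentamicin. Only the clones were also kept in G418, and it was taken out of the medium for the culture from which RNA was collected, after 72 h and near confluency. The labels name no interferon treatment, so the values are levels in culture without a named stimulus. What the shared transfection, the selection and the descent from 1 cell each contribute cannot be told apart.

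Interferons are secreted proteins that cells make on sensing viral nucleic acid. Type I and type III interferons act through receptors and the kinases Jak1 and Tyk2 on a transcription factor complex that holds Stat2 and Irf9 and binds the interferon-stimulated response element, while interferon gamma acts through Jak1 and Jak2 on gamma-activated sites. The genes switched on in this way encode RNA sensors, antiviral effectors, GTPases and feedback inhibitors, and tumour cells are known to keep some of them expressed without added interferon. In RNA of whole cultures, fewer cells expressing a gene and less of its RNA per cell cannot be told apart.

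The libraries held between 20143111 and 36831801 counts. A single identifier without a symbol in the gene table took between 36.8% and 49.3% of each library, and 6164768 to 14206491 counts lay outside the 6 most abundant genes. Its share was highest in parental replicate 1 and E2 replicate 1, and counts of called genes are therefore also given without that pair of libraries. The labelled cell type was checked with markers. Of 12 epithelial markers 11 were detected, and Krt5 was at 0 in every library. Their summed level was 386 to 434 CPM (the gene's count over the normalised library total, on the usual CPM scale) in the parental libraries. It was 616 to 892 CPM in those of the clones, but single markers went both ways. Against the parental population by edgeR (adjusted p under 0.05), A had 5 markers higher and 3 lower, Cdh1, Cldn7 and Krt14. M had 8 higher and 1 lower, Cdh1, while E1 and E2 each had 7 higher and 0 lower. The 16 leukocyte markers summed to 0.140 to 1.24 CPM in any library, and Cd3e, Cd3g, Adgre1, Itgam, Tyrobp, Siglech and Nkg7 were at 0 in every library. The 8 endothelial markers summed to at most 0.425 CPM. The 10 fibroblast markers summed to 3.34 to 12.1 CPM in parental, E1, E2 and M and to 21.2 to 33.8 CPM in A. Nearly all of that was Pdgfra, a growth factor receptor, at 26.4 ± 6.61 CPM in A and 7.13 ± 0.333 CPM in the parental population, while Dcn, Lum and Thy1 were at 0 in every library.

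Most of the 38 genes were expressed at a low to moderate level. Of those called different from the parental line, most were lower in E1, E2 and A, while M had 1 higher and 0 lower. For A this did not extend to further interferon-stimulated genes, described below, of which 14 were called higher and 3 lower in A. In E1 more of those further genes were lower than higher, 6 and 2. E2 had 5 each way, and M had 7 higher and 3 lower. Of the 38 genes, 34 had enough counts to be tested, and Oas1a, Ifit3, Mx1 and Mx2 did not. The level of all 38 together was 385 to 410 CPM in the parental libraries, 316 to 333 in E1, 351 to 364 in E2, 323 to 353 in A and 333 to 376 in M. The 3 parental libraries thus lay above all 12 clone libraries. Trim25 alone gave 102 ± 8.90 CPM of this sum in the parental population. With edgeR's quasi-likelihood test and a Benjamini-Hochberg adjusted p under 0.05 as the call, 18 of the 34 differed among the 5 populations, against 40.9% of all 12712 genes tested. Without parental replicate 1 and E2 replicate 1 the number was 14.

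Against the parental population, E1 had 10 genes lower and 1 higher. They are 29.4% and 2.94% of the 34, beside 7.35% lower and 7.77% higher among all genes tested. The median log2 fold change of the 34 was -0.64 in E1 and that of all genes -0.01. E2 had 7 lower (20.6%, all genes 8.8%) and 1 higher (2.94%, all genes 9.14%), with a median of -0.18 beside 0.01. A had 7 lower (20.6%, all genes 14.9%) and 2 higher (5.88%, all genes 15.1%), with a median of -0.29 beside 0.03. M had 1 gene higher (2.94%, all genes 7.87%) and none lower by edgeR (all genes 6.28%), with a median of -0.21 beside -0.01. In M, 6 genes were lower at an unadjusted p under 0.05, and DESeq2 called 2 lower. The 4 comparisons share the 3 parental libraries, so a high or low parental value enters all of them.

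These counts depended on single libraries. The E1 count of 11 became 5 without E1 replicate 2 or E1 replicate 3 and 7 without parental replicate 2, and the E2 count of 8 became 5 without parental replicate 2. Without parental replicate 1 and E2 replicate 1 together, the number called was 9 for clone E1, 7 for E2, 7 for A and 1 for M. The calls lost there were Bst2 and Ifi27 in E1 (adjusted p = 0.0792 and 0.113) and Oasl2 and Cmpk2 in E2 (adjusted p = 0.246 and 0.0679). In A they were Herc6, Samhd1 and Gbp3 (adjusted p = 0.124, 0.135 and 0.159). Over all 4 comparisons, 20 of the 34 (58.8%) were called in at least 1 clone and 14 in none, while 42.5% of all genes tested were called in at least 1 clone. By direction, 17 (50%, all genes 22.2%) were lower and 3 (8.82%, all genes 21.7%) higher in at least 1 clone. The list was chosen with earlier results of these data known, so its shares beside those of all genes are a description and not a test. No gene was called in all 4 clones, and none was called higher in one clone and lower in another. Usp18 was called in 3 clones, and Irf9, Ddx60, Oasl1, Oasl2, Rsad2, Cmpk2 and Parp14 in 2 each.

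**Figure D1:**
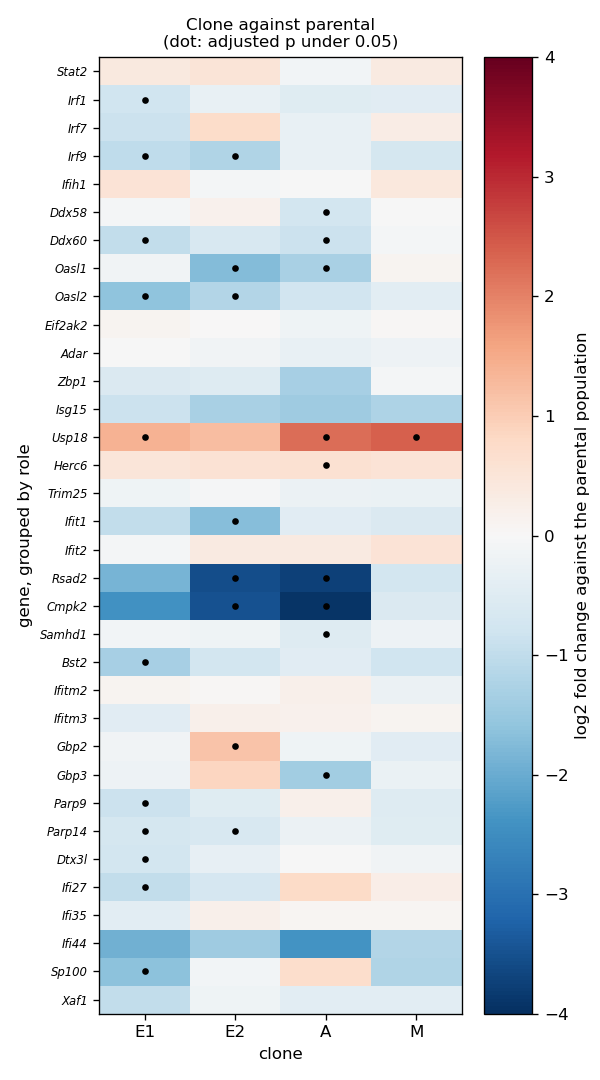
Log2 fold change of the 34 tested genes (rows, grouped by role) in each clone against the parental population (columns), on a colour scale from -4 (blue, lower in the clone) to 4 (red, higher), with a dot where the adjusted p is under 0.05. E1 has 11 dots, E2 8, A 9 and M 1; the colour of Cmpk2 in A is a fitted value, since all 3 A libraries are at 0.

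The promoters show which of these genes carry the letters that interferon-regulated factors are known to read, and 6 are printed here. They are those with a match of a core described below in the 150 bases before the start, where these bases lie outside the gene. Isg15 was not called in any clone, and the other 5 genes were called in at least 1. RefSeq promoters on GRCm38.p6, from 250 bases before to 50 bases after the transcription start, were found for 31 of the 38 genes, 38 promoters in all. Ifi27, Zbp1, Usp18, Mx1, Mx2, Parp9 and Parp14 had no entry. The core of the interferon-stimulated response element was searched as GAAA, 2 bases of any kind and GAAA on both strands. It was present in 15 of the 31 genes (48.4%) and in 3.99% of all 27025 genes with a promoter. The core of the gamma-activated site, TTCNNNGAA, which reads the same on both strands, was present in 9 of the 31 (29.0%) and in 9.55% of all genes. In the 250 bases before the start alone, the shares were 35.5% beside 3.46% and 19.4% beside 8.13%.

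The following lines give the 150 bases before the start, 5′ to 3′ on the strand of the gene, with matches of either core in capitals. The genes are Isg15 (chr4:156200819-156200968, minus strand), Ifit1 (chr19:34640739-34640888, plus), Rsad2 (chr12:26456453-26456602, minus), Bst2 (chr8:71537473-71537622, minus), Gbp2 (chr3:142620513-142620662, plus) and Irf1 (chr11:53769864-53770013, plus).
Isg15: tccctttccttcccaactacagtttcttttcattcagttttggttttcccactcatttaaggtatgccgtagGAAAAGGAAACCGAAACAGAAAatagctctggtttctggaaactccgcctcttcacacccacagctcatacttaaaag
Ifit1: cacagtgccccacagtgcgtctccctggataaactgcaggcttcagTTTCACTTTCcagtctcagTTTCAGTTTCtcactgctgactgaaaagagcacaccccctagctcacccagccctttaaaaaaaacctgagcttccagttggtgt
Rsad2: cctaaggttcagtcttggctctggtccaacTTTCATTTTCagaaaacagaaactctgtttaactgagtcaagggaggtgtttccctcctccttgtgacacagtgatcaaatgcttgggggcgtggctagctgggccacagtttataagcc
Bst2: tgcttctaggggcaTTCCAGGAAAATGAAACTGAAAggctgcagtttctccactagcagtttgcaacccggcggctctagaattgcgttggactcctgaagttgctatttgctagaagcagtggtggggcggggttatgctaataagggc
Gbp2: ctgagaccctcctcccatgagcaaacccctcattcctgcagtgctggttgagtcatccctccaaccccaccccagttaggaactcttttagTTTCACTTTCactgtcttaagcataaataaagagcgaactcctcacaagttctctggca
Irf1: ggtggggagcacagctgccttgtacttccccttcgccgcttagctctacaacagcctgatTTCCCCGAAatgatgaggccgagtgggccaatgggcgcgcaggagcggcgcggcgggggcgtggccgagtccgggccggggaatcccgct
Isg15 has 3 overlapping matches of the response element core, Ifit1 has 2 separate ones, and Rsad2 and Gbp2 have 1 each. In Bst2 a match of the gamma-activated site core runs into 2 matches of the response element core, and Irf1 has only the gamma-activated site core. Of the 15 genes with the response element core 13 were tested, and 6 (46.2%) were called lower and 1 (Gbp2, 7.69%) higher in at least 1 clone, beside 27.5% lower and 22.6% higher among the 345 tested genes with that core in a promoter. Of the 16 genes without it, all 16 were tested, and 8 (50%) were called lower and 1 (Herc6, 6.25%) higher, beside 22.2% and 22.8% among the 9359 tested genes without it. A match of these letters describes the sequence and does not show that a factor binds there.

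Among the 4 transcription factors, Irf9 and Irf1 were lower in E1 and Irf9 also in E2. Irf9 (chr14:55603985-55610030), the DNA-binding subunit of the complex that answers type I interferon, had 4.09, 7.50 and 4.28 CPM in the parental replicates, 3.21, 2.56 and 1.92 in E1, 2.13, 1.96 and 2.70 in E2, 3.92, 4.30 and 4.52 in A and 2.82, 3.63 and 3.11 in M. All libraries of E1, E2 and M lay below the lowest parental one, while A, at a lowest value just under the lowest parental one, overlapped the parental range. The difference was called in E1 (log2 fold change -1.03, SE 0.35, adjusted p = 0.0288) and in E2 (log2 fold change -1.20, SE 0.31, adjusted p = 0.0103). In E1 the difference no longer passed without parental replicate 2, E1 replicate 2 or E1 replicate 3 (adjusted p = 0.217, 0.0834 and 0.142), and the E2 call without parental replicate 2 (adjusted p = 0.0990). Parental replicate 2 held the highest Irf9 value of all libraries. Exons of Irf9 overlap those of Rnf31 by 123 bases on the same strand.

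Irf1 (chr11:53770014-53778374), a factor induced by interferon gamma whose promoter above holds the gamma-activated site core, had 20.9, 13.1 and 17.7 CPM in the parental replicates and 9.11, 9.48 and 11.1 in E1. E2 had 16.6, 11.7 and 13.4 CPM, A 13.9, 11.9 and 11.3 and M 13.6, 10.9 and 13.5. The E1 libraries all lay below the parental ones, while E2, A and M overlapped them. Irf1 was called lower in E1 (log2 fold change -0.79, SE 0.22, adjusted p = 0.00899), a call lost without parental replicate 1 (adjusted p = 0.0532). Stat2, the partner of Irf9, was not called in any clone, with population means from 2.54 to 3.97 CPM. Irf7, the factor that drives the interferon alpha genes, was near the limit of detection at population means of 0.109 to 0.483 CPM.

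Among the 9 sensors and RNA-acting enzymes, both oligoadenylate synthetase-like genes and both helicase genes Ddx58 and Ddx60 fell in 1 or 2 clones. Oasl1 (chr5:114923143-114937911), which encodes a synthetase-like protein without the enzyme's activity, had 6.82, 6.66 and 5.79 CPM in the parental replicates, 6.93, 6.78 and 3.88 in E1 and 5.51, 5.66 and 9.58 in M. It had 0.937, 3.18 and 1.49 CPM in E2 and 2.36, 2.77 and 2.58 in A. All 6 libraries of E2 and A thus lay below all 9 of the other populations. Oasl1 fell in E2 (log2 fold change -1.73, SE 0.50, adjusted p = 0.00103) and in A (log2 fold change -1.30, SE 0.10, adjusted p = 0.00483), and both calls held under every alternative tried.

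Oasl2 (chr5:114896926-114912245) is the neighbour of Oasl1 and followed another order. It had 6.82, 3.37 and 4.41 CPM in the parental replicates, 1.79, 1.02 and 1.80 in E1, 1.98, 1.61 and 2.80 in E2, 2.62, 2.35 and 3.57 in A and 3.57, 3.90 and 3.30 in M. E1 had the lowest mean, and E1 and E2 did not overlap the parental libraries. Oasl2 fell in E1 (log2 fold change -1.61, SE 0.39, adjusted p = 0.00294), a call that held under every alternative, and in E2 (log2 fold change -1.16, SE 0.37, adjusted p = 0.0229), a call lost without parental replicate 1, E2 replicate 1 or E2 replicate 2 (adjusted p = 0.151, 0.0601 and 0.0998). Without parental replicate 1 and E2 replicate 1 together, the adjusted p of Oasl2 in E2 was 0.246. In E1, where Oasl2 fell, Oasl1 had a log2 fold change of -0.13 (SE 0.28, adjusted p = 0.841) and was not called.

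Ddx58 (chr4:40203777-40239825), which encodes the sensor of viral RNA ends RIG-I, was lower in A than in each other population. Its values were 12.1, 18.7 and 18.8 CPM in A, 26.3, 24.9 and 31.2 in the parental replicates, 25.1, 22.5 and 29.9 in E1, 38.8, 26.5 and 27.3 in E2 and 21.5, 32.5 and 27.6 in M. The 3 A libraries were the lowest of the 15. The log2 fold change of A was -0.73 (SE 0.23, adjusted p = 0.00592) against the parental population, and that call was lost without A replicate 1 (adjusted p = 0.0584). Against the other clones it was -0.64 (SE 0.24, adjusted p = 0.0146) for E1 and -0.90 (SE 0.28, adjusted p = 0.00160) for E2. The E1 contrast no longer passed without E1 replicate 3 or A replicate 1 (adjusted p = 0.0883 and 0.114), and the one against E2 held under every alternative.

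Ddx60 (chr8:61928073-62037704), a helicase linked to RNA sensing, had 8.03, 10.2 and 7.15 CPM in the parental replicates, 4.12, 5.06 and 3.56 in E1, 4.84, 5.45 and 5.74 in E2, 6.08, 3.78 and 4.06 in A and 3.92, 9.78 and 10.04 in M. The libraries of E1, E2 and A lay below the parental ones. M replicate 1 was as low as E1, while the other M replicates were as high as the parental line. Ddx60 was called lower in E1 (log2 fold change -0.99, SE 0.21, adjusted p = 0.0251) and in A (log2 fold change -0.86, SE 0.26, adjusted p = 0.0292). In E1 the difference no longer passed without parental replicate 2, E1 replicate 1 or E1 replicate 3 (adjusted p = 0.107, 0.0618 and 0.114), and the A call without parental replicate 2, A replicate 2 or A replicate 3 (adjusted p = 0.117, 0.118 and 0.107).

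The other sensors showed no called difference in any comparison. Ifih1, a sensor of long double-stranded RNA, had population means between 6.03 and 9.28 CPM. Eif2ak2, the kinase PKR, had means between 21.2 and 25.8 CPM, and Adar, which edits double-stranded RNA, between 28.4 and 34.9 CPM. The value of Adar is uncertain, since 1365 bases of its exons overlap Chrnb2 on the opposite strand and the strand setting of the counting is not given in the sources used here. Zbp1, a sensor of Z-form nucleic acid, had means of at most 0.361 CPM. Oas1a was under the filter, with 63 counts in all libraries and 0 in the 3 of A, and is uncertain because its family has near-identical copies.

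Among the 4 genes of the ISG15 system, Usp18 and Herc6 rose where they were called. Usp18 (chr6:121245906-121270917), which removes ISG15 from proteins and damps the type I receptor, had 0.975, 0.459 and 0.157 CPM in the parental replicates, 1.39, 1.39 and 1.64 in E1, 0.989, 1.33 and 1.55 in E2, 3.29, 1.96 and 2.71 in A and 3.39, 2.45 and 3.21 in M. All 12 clone libraries lay above all 3 parental ones, among which replicate 1 was the highest. Usp18 rose in M (log2 fold change 2.40, SE 0.65, adjusted p = 0.00118) and in A (log2 fold change 2.22, SE 0.67, adjusted p = 0.000882), and both calls held under every alternative. The E1 call (log2 fold change 1.40, SE 0.64, adjusted p = 0.0446) was lost in 11 of the 15 fits that left out 1 library, at an adjusted p of 0.0502 to 0.205, that is without any library but parental replicate 1, E2 replicates 1 and 2, and M replicate 2. E2 was not called (log2 fold change 1.23, SE 0.66, adjusted p = 0.0729). Whether the clones differ from each other in Usp18 was tested and not called in any of the 6 pairs.

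Herc6 (chr6:57580992-57665136), the ligase that attaches ISG15 in mouse cells, had 6.45, 7.88 and 8.53 CPM in the parental replicates and 12.8, 10.4 and 12.1 in A, without overlap. The call in A (log2 fold change 0.62, SE 0.15, adjusted p = 0.0347) was lost without parental replicate 1, parental replicate 2, A replicate 1 or A replicate 3 (adjusted p = 0.165, 0.0630, 0.111 and 0.0889) and without the filter on low counts (adjusted p = 0.0573). Herc6 shares 1269 exon bases with a predicted gene on the same strand. Isg15 itself, the ubiquitin-like modifier, had 1.90, 1.88 and 1.35 CPM in the parental replicates and 0.196 to 1.23 CPM in the clone libraries. All parental Isg15 values were above all clone values, yet no difference was called (log2 fold change -1.41, SE 0.70, adjusted p = 0.105, for A). Trim25, a ubiquitin ligase that acts on RIG-I, was not called, with population means of 85.6 to 102 CPM.

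**Figure D2:**
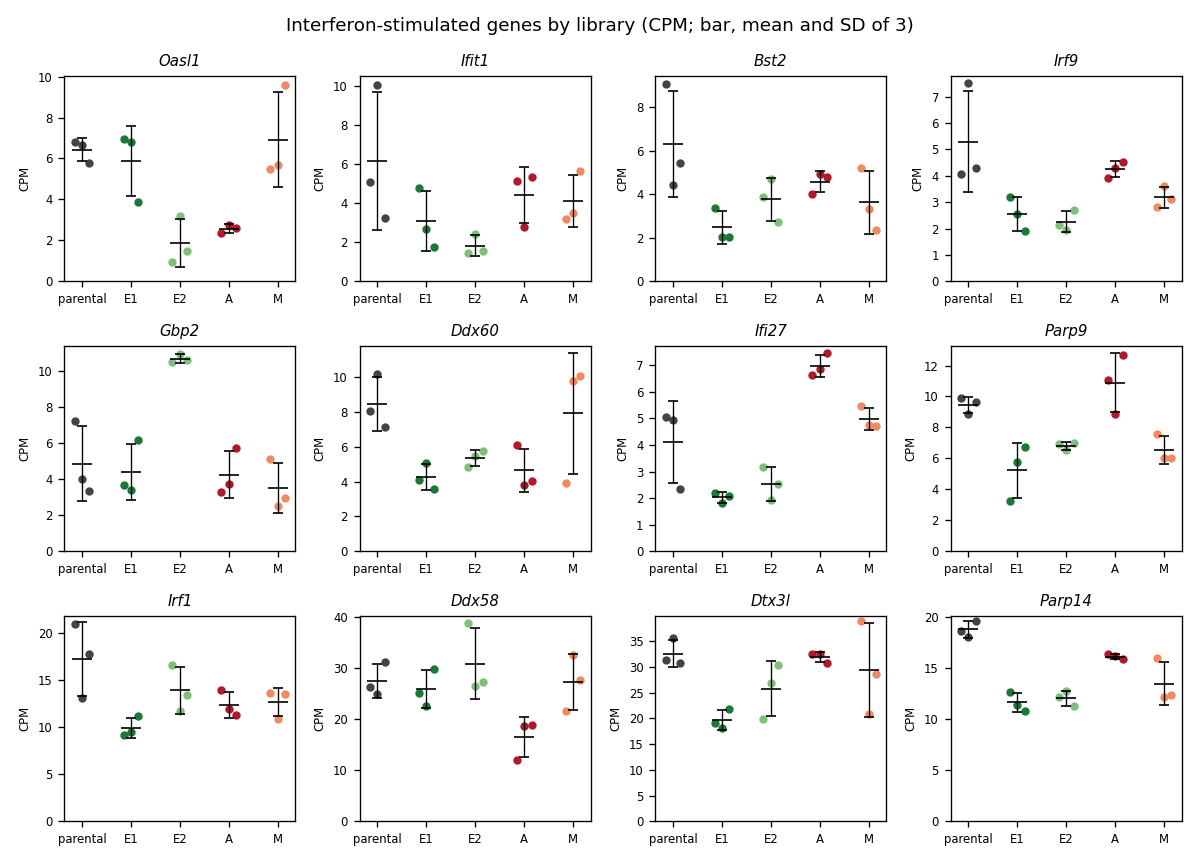
CPM of the 12 genes that were called for any difference and reached at least 5 CPM in a population, one panel per gene, with a point per library and a bar for the mean and SD of 3. The points of E2 and A lie below those of the other populations for Oasl1, the E2 points lie above all others for Gbp2, and the A points lie below all others for Ddx58.

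Among the 13 antiviral effectors, the largest falls were those of Rsad2 and Cmpk2, neighbouring genes on chromosome 12. Rsad2 (chr12:26442743-26456452) encodes viperin, which makes a chain-terminating nucleotide, and Cmpk2 (chr12:26469117-26479837) encodes a mitochondrial nucleotide kinase. They lie head to head on opposite strands. Both are under 5 CPM and are described because they were called, a choice made after their values were seen. Rsad2 had 2.83, 2.33 and 3.31 CPM in the parental replicates, 0.514, 1.12 and 0.568 in E1, 0.468, 0 and 0.122 in E2, 0, 0.326 and 0.123 in A and 1.32, 1.72 and 1.91 in M. All clone libraries lay below all parental ones, and those of E2 and A were the lowest 6. Rsad2 fell in E2 (log2 fold change -3.53, SE 0.87, adjusted p = 0.00204) and in A (log2 fold change -3.72, SE 0.74, adjusted p = 0.000488), and both calls held under every alternative.

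Cmpk2 had 0.464, 1.15 and 1.32 CPM in the parental replicates, 0.0605, 0.139 and 0.189 in E1, 0, 0.0698 and 0 in E2, 0 in each A library and 0, 0.907 and 0.971 in M. The parental libraries held 82 Cmpk2 counts together, those of E2 held 2 and those of A none. With a floor of 3 counts over the population, Cmpk2 was at least 30.4-fold lower in A than in the parental population (adjusted p = 0.00216), a call that held under every alternative. The ratio of parental to E2 was 41.7, with an exact 95% counting interval of 11.2 to 350 (adjusted p = 0.0192). In E2 the difference no longer passed without parental replicate 3, E2 replicate 1 or E2 replicate 3 (adjusted p = 0.0607, 0.0590 and 0.0831). In M, replicate 1 had no Cmpk2 count while the other replicates were within the parental range. In E1 the fitted log2 fold changes were -1.87 (SE 0.35, adjusted p = 0.0812) for Rsad2 and -2.41 (SE 0.52, adjusted p = 0.125) for Cmpk2, and neither was called.

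**Figure D3:**
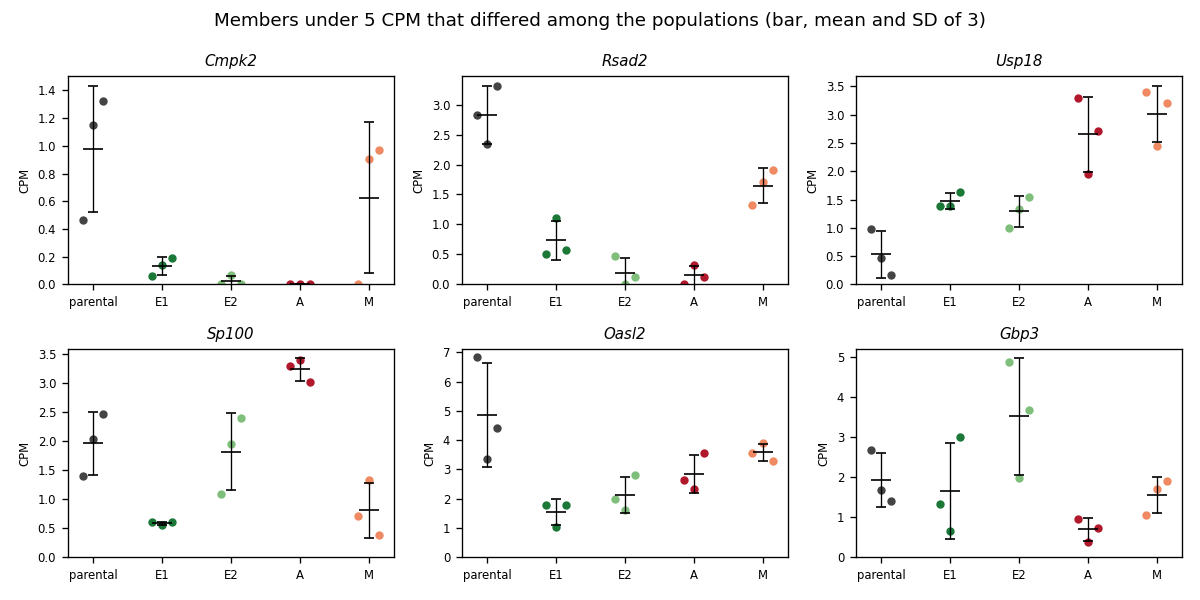
CPM of the 6 genes that were called for any difference and stayed under 5 CPM in every population, drawn as one panel per gene with a point per library and a bar for the mean and SD of 3. The A libraries are at 0 for Cmpk2, and the parental points are the lowest for Usp18.

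Of the other effectors, Ifit1, Bst2, Samhd1, Gbp2 and Gbp3 were each called in 1 clone, Ifit2, Ifitm2 and Ifitm3 in none, and Ifit3, Mx1 and Mx2 were not tested. Ifit1 (chr19:34640889-34650009), which binds viral RNA and has 2 response element cores in the promoter above, had 5.11, 10.1 and 3.24 CPM in the parental replicates, 4.75, 2.69 and 1.77 in E1, 1.46, 2.44 and 1.55 in E2, 5.12, 2.77 and 5.35 in A and 3.17, 3.50 and 5.63 in M. The 3 E2 libraries lay below all parental, A and M libraries. The fall in E2 (log2 fold change -1.71, SE 0.52, adjusted p = 0.00464) was lost without parental replicate 2 (adjusted p = 0.0625), the library with the highest value. Ifit2, from the same cluster on chromosome 19, was not called, with means of 10.1 to 15.8 CPM. Ifit3 was under the filter with 63 counts in all libraries, as were Mx1 with 16 and Mx2 with 40, GTPases that block viral replication. These 3 have near-identical copies or relatives, so their counts are uncertain.

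Bst2 (chr8:71534255-71537472), the protein tetherin that holds budding virus at the cell surface, had 9.05, 4.44 and 5.42 CPM in the parental replicates, 3.36, 2.04 and 2.02 in E1, 3.85, 4.71 and 2.74 in E2, 4.02, 4.92 and 4.77 in A and 5.20, 3.33 and 2.36 in M. The E1 libraries lay below all parental ones, and parental replicate 1 was the highest of the 15. The fall in E1 (log2 fold change -1.32, SE 0.38, adjusted p = 0.00980) was lost without parental replicate 1, E1 replicate 2 or E1 replicate 3 (adjusted p = 0.0803, 0.0537 and 0.0578). Without parental replicate 1 and E2 replicate 1 together its adjusted p was 0.0792. Samhd1, which breaks down deoxynucleotides, had 15.3, 16.6 and 19.8 CPM in A and 28.8, 20.4 and 24.03 in the parental replicates. Its call in A (log2 fold change -0.50, SE 0.18, adjusted p = 0.0344) was lost without parental replicate 1, parental replicate 3, A replicate 1 or A replicate 2 (adjusted p = 0.134, 0.0702, 0.136 and 0.0954). Ifitm2 and Ifitm3, which keep virus from leaving endosomes, were not called, with population means of 3.23 to 4.43 and 5.56 to 8.90 CPM. They are close copies and are uncertain.

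The guanylate-binding proteins are GTPases that attack intracellular pathogens, and of the pair among the 38 genes Gbp2 rose in E2. Gbp2 (chr3:142620663-142638008) had 10.5, 10.96 and 10.6 CPM in E2, 7.24, 4.02 and 3.37 in the parental replicates, 3.66, 3.39 and 6.18 in E1, 3.29, 3.75 and 5.75 in A and 5.11, 2.50 and 2.95 in M. The 3 E2 libraries lay above the other 12 and within a narrow range. Gbp2 rose in E2 (log2 fold change 1.13, SE 0.33, adjusted p = 0.0151), a call lost without parental replicate 2 or parental replicate 3 (adjusted p = 0.0616 and 0.0909). It was also lower in A than in E2 (log2 fold change -1.31, SE 0.24, adjusted p = 0.00387) and lower in M than in E2 (log2 fold change -1.60, SE 0.31, adjusted p = 0.00484), and both of these calls held under every alternative. E2 and E1 were not called different (log2 fold change 1.26, SE 0.27, adjusted p = 0.102).

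Gbp3 (chr3:142560016-142573213), on the same cluster of chromosome 3, had 4.89, 1.99 and 3.68 CPM in E2, 2.69, 1.68 and 1.42 in the parental replicates, 1.33, 0.650 and 3.00 in E1, 0.963, 0.391 and 0.738 in A and 1.06, 1.72 and 1.91 in M. A was below E2 and the parental line without overlap. The difference of A from E2 (log2 fold change -2.22, SE 0.51, adjusted p = 0.00229) held under every alternative. The call of A against the parental population (log2 fold change -1.38, SE 0.44, adjusted p = 0.0395) was lost without parental replicate 1, E2 replicate 3, A replicate 2 or A replicate 3 (adjusted p = 0.148, 0.0518, 0.151 and 0.0820).

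Parp9, Dtx3l and Parp14, neighbours on chromosome 16, were all called lower in E1, and none was called in A against the parental population. Parp9 and Dtx3l form a complex that attaches ubiquitin and ADP-ribose, and Parp14 is a related ADP-ribosyltransferase. Parp14 (chr16:35831892-35871518) had 18.6, 18.1 and 19.6 CPM in the parental replicates, 12.7, 11.4 and 10.8 in E1, 12.1, 12.7 and 11.3 in E2, 16.3, 16.1 and 15.9 in A and 15.95, 12.1 and 12.4 in M. Every clone library lay below every parental one, and the replicates of each population except M were close to each other. Parp14 fell in E1 (log2 fold change -0.69, SE 0.07, adjusted p = 0.00836) and E2 (log2 fold change -0.64, SE 0.06, adjusted p = 0.0118), and both calls held under every alternative.

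Dtx3l (chr16:35926515-35939027) had 31.3, 35.6 and 30.9 CPM in the parental replicates, 19.04, 18.2 and 21.9 in E1, 19.9, 26.95 and 30.4 in E2, 32.6, 32.5 and 30.9 in A and 38.9, 20.8 and 28.7 in M. The spread was widest in M, whose replicate 1 was the highest of all libraries. Dtx3l fell in E1 (log2 fold change -0.72, SE 0.10, adjusted p = 0.0102), a call lost without E1 replicate 2 (adjusted p = 0.0556). Parp9 (chr16:35938470-35972621) had 9.89, 8.88 and 9.64 CPM in the parental replicates, 3.27, 5.76 and 6.72 in E1, 6.92, 6.53 and 6.99 in E2, 11.1, 8.87 and 12.7 in A and 7.58, 6.03 and 6.05 in M. Libraries of E1, E2 and M all lay below the parental ones. Parp9 was called lower in E1 (log2 fold change -0.85, SE 0.31, adjusted p = 0.0197), and the call did not pass without parental replicate 3 or E1 replicate 1 (adjusted p = 0.0554 and 0.113). Parp9 and Dtx3l overlap by 458 exon bases on opposite strands, so part of their reads could not be told apart if strand was not used in counting.

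Of the 5 remaining genes, Ifi27 and Sp100 were lower in E1 than in the parental population and had their highest mean in A. Ifi27 (chr12:103434189-103440245), a small membrane protein gene, had 5.06, 4.94 and 2.33 CPM in the parental replicates, 2.21, 1.81 and 2.08 in E1, 3.17, 1.92 and 2.52 in E2, 6.64, 6.85 and 7.44 in A and 5.46, 4.75 and 4.73 in M. The 3 A libraries were the highest of the 15, and the E1 libraries lay below all of A, M and the parental line. The difference of A from E1 (log2 fold change 1.74, SE 0.10, adjusted p = 0.000107) and that of A from E2 (log2 fold change 1.44, SE 0.21, adjusted p = 0.00116) held under every alternative. The call of E1 against the parental population (log2 fold change -0.98, SE 0.37, adjusted p = 0.0319) was lost without parental replicate 1, parental replicate 2, E1 replicate 1, E1 replicate 2 or E1 replicate 3 (adjusted p = 0.125, 0.129, 0.0531, 0.110 and 0.0858).

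Sp100 (chr1:85649948-85709998), a component of nuclear bodies, had 1.39, 2.03 and 2.46 CPM in the parental replicates, 0.605, 0.558 and 0.599 in E1, 1.09, 1.96 and 2.40 in E2, 3.29, 3.39 and 3.01 in A and 0.705, 1.32 and 0.389 in M. Sp100 was called lower in E1 than in the parental population (log2 fold change -1.63, SE 0.23, adjusted p = 0.0179), a call lost without parental replicate 3, E1 replicate 2 or E1 replicate 3 (adjusted p = 0.0763, 0.0615 and 0.0583). It was higher in A than in E1 (log2 fold change 2.33, SE 0.06, adjusted p = 0.000450) and lower in M than in A (log2 fold change -1.90, SE 0.47, adjusted p = 0.00485), and both of these calls held under every alternative. Ifi44, of unsettled function, had 3.85, 5.05 and 2.68 CPM in the parental replicates and 0 to 2.34 CPM in the clones. The parental Ifi44 libraries were above all 12 clone libraries, yet no difference was called (log2 fold change -2.40, SE 0.85, adjusted p = 0.0544, for A). Ifi35 and Xaf1 were not called, with population means of 1.91 to 3.01 and 0.292 to 0.670 CPM.

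Between the clones, the fewest genes were called in E2 against E1 and in M against E1, 1 each, and the comparisons with A gave the most, 6 to 8. Over all genes tested the comparisons with A also gave the most, 2256 to 3767. The numbers over all genes were 30 in E2 against E1, 495 in M against E1 and 445 in M against E2. In E2 against E1, 1 of 34 genes was lower, Oasl1 (log2 fold change -1.59, SE 0.56, adjusted p = 0.0429), beside 0.0629% lower and 0.173% higher among all genes, and none was higher by edgeR. In that comparison 6 genes were higher at an unadjusted p under 0.05, and DESeq2 called 1 higher. The Oasl1 call was lost in 8 of the 15 fits without 1 library, at an adjusted p of 0.0536 to 0.250, those without parental replicate 3, E1 replicates 1 and 2, E2 replicates 1 and 3 and each A replicate. It was also lost without parental replicate 1 and E2 replicate 1 together (adjusted p = 0.104).

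In A against E1, 5 were higher (14.7%, all genes 15%) and 3 lower (8.82%, all genes 14.6%), shares near or under those of all genes. The higher ones were Parp9 (log2 fold change 1.04, SE 0.35, adjusted p = 0.00182), Dtx3l (log2 fold change 0.70, SE 0.08, adjusted p = 0.00617), Parp14, Ifi27 and Sp100. The lower ones were Ddx58, Oasl1 (log2 fold change -1.17, SE 0.28, adjusted p = 0.0107) and Rsad2 (log2 fold change -1.86, SE 0.80, adjusted p = 0.0474). The count of 8 became 5 without A replicate 1. The Oasl1 call was lost without E1 replicate 1 (adjusted p = 0.0528). The Rsad2 call was lost in 9 of the 15 fits without 1 library and the Parp14 call (adjusted p = 0.0438) in 10, among them those without any parental replicate.

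In A against E2, 4 were higher (11.8%, all genes 11.4%), Irf9, Ifit1, Parp9 and Ifi27, and 3 were lower (8.82%, all genes 11%), Ddx58, Gbp2 and Gbp3. The Irf9 and Parp9 calls (adjusted p = 0.0468 and 0.0477) were each lost in 10 of the 15 fits without 1 library. The Ifit1 call (log2 fold change 1.24, SE 0.38, adjusted p = 0.0286) was lost without E2 replicate 1, E2 replicate 3, A replicate 1 or A replicate 3 (adjusted p = 0.102, 0.101, 0.0890 and 0.112). The count of 7 was 4 without E2 replicate 1, E2 replicate 3, A replicate 1 or A replicate 3, and 4 without parental replicate 1 and E2 replicate 1 together.

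In M against A, 4 were higher (11.8%, all genes 9.2%) and 2 lower (5.88%, all genes 8.55%). The higher ones were Cmpk2, Rsad2 (log2 fold change 2.98, SE 0.75, adjusted p = 0.00541), Oasl1 (log2 fold change 1.40, SE 0.27, adjusted p = 0.00479) and Ddx58 (log2 fold change 0.72, SE 0.27, adjusted p = 0.0118), and the lower ones Sp100 and Parp9 (log2 fold change -0.73, SE 0.18, adjusted p = 0.0370). The Ddx58 call was lost without A replicate 1 or M replicate 2 (adjusted p = 0.0961 and 0.0595) and the Parp9 call without A replicate 1, A replicate 3, M replicate 2 or M replicate 3 (adjusted p = 0.0913, 0.162, 0.106 and 0.118). Cmpk2 overlapped at 0 in M replicate 1. In M against E2, Oasl1 (log2 fold change 1.83, SE 0.56, adjusted p = 0.00300) and Rsad2 (log2 fold change 2.78, SE 0.87, adjusted p = 0.0347) were higher (5.88%, all genes 1.93%) and Gbp2 lower (2.94%, all genes 1.57%). The Oasl1 call held under every alternative, and the Rsad2 call was lost without parental replicate 3, E2 replicate 2, E2 replicate 3 or M replicate 3 (adjusted p = 0.0559, 0.105, 0.123 and 0.101). In M against E1, Ifi27 was higher (log2 fold change 1.26, SE 0.11, adjusted p = 0.0184, 2.94% of the genes, all genes 2.43%), a call lost without E1 replicate 2, E1 replicate 3 or M replicate 1 (adjusted p = 0.0917, 0.0730 and 0.0565). None was lower in M than in E1 by edgeR (all genes 1.46%), at an unadjusted p under 0.05 or by DESeq2.

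Compared per kilobase of merged exons, the levels in the parental population were led by Trim25 at 17.8 CPM per kilobase, Ifitm3 at 11.5, Bst2 at 6.98, Ifitm2 at 5.85 and Dtx3l at 5.70. In E1, Bst2 stood at 2.74 CPM per kilobase and Dtx3l at 3.44. Isg15, in many cells among the strongest interferon-stimulated genes, had 2.26 CPM per kilobase in the parental population and 0.790 in A. At the other end, Irf7 had 0.0668, Ifit3 0.0507 and Mx2 no count in the parental population.

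The interferons themselves were almost without reads. Of 21 interferon ligand genes listed, 14 had no count in any library, among them Ifng and most interferon alpha genes. The other 7 had 58 counts over the 15 libraries, and in M no ligand gene had a count, where 3 counts over the population would be 0.0318 CPM. None of the 21 passed the filter. Ifnk had the highest population mean, 0.197 ± 0.282 CPM in E2, with 0 in E2 replicate 3.

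The lists of pathway genes outside the 38 held 106 tested genes, of which 8.49% were called higher and 9.43% lower in E1 (all genes 7.77% and 7.35%) and 11.3% and 8.49% in E2 (all genes 9.14% and 8.8%), shares near those of all genes. In A they were 22.6% and 5.66% (all genes 15.1% and 14.9%), and in M 13.2% and 4.72% (all genes 7.87% and 6.28%). The counts within a list are small, and several of them moved by 1 or more genes when a single library was left out. All 9 receptor and kinase genes were tested. In E1, 1 was higher (11.1%, all genes 7.77%). In E2, 2 were higher (22.2%, all genes 9.14%) and 1, Il10rb, lower (11.1%, all genes 8.8%). In A, 3 were higher (33.3%, all genes 15.1%), and in M 1 was higher (11.1%, all genes 7.87%). Jak2, the kinase of the interferon gamma receptor, had 58.1, 59.6 and 57.7 CPM in the parental replicates, 71.2, 53.6 and 68.1 in E1, 69.2, 81.8 and 96.9 in E2, 188, 152 and 184 in A and 108, 144 and 124 in M. The A libraries were the highest 3 and the M libraries the next. Jak2 rose in A (log2 fold change 1.58, SE 0.10, adjusted p = 2.28e-08) and M (log2 fold change 1.10, SE 0.12, adjusted p = 1.5e-05) under every alternative, and in E2 (log2 fold change 0.50, SE 0.14, adjusted p = 0.0237) with the call lost without parental replicate 1, parental replicate 3 or E2 replicate 3 (adjusted p = 0.0655, 0.0710 and 0.197). Ifnlr1, the receptor chain of type III interferon, had 2.71 ± 0.931 CPM (SD, n = 3) in the parental population. It rose by a log2 fold change of 1.65 (SE 0.28, adjusted p = 0.000159) in E1, 1.66 (SE 0.32, adjusted p = 0.000115) in E2 and 1.26 (SE 0.31, adjusted p = 0.000855) in A, under every alternative. Ifnar1, a chain of the type I receptor, rose in A (log2 fold change 0.53, SE 0.14, adjusted p = 0.0180), a call lost without parental replicate 1 or A replicate 2 (adjusted p = 0.0914 and 0.125).

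Of the 16 genes of nucleic acid sensing, 12 were tested. In E1, 2 were higher (16.7%, all genes 7.77%). E2 had 2 higher (16.7%, all genes 9.14%) and 1 lower (8.33%, all genes 8.8%). A had 1 higher (8.33%, all genes 15.1%) and 2 lower (16.7%, all genes 14.9%). M had 2 higher (16.7%, all genes 7.87%) and 1 lower (8.33%, all genes 6.28%). Irf3, the factor that starts interferon transcription, had 2.83, 2.14 and 2.93 CPM in the parental replicates and 3.69 to 8.74 CPM in the 12 clone libraries, without overlap. It was called higher in each clone, with log2 fold changes of 1.05 (SE 0.15, adjusted p = 0.0159) in E1, 1.27 (SE 0.27, adjusted p = 0.00353) in E2, 1.01 (SE 0.32, adjusted p = 0.0104) in A and 1.26 (SE 0.22, adjusted p = 0.00452) in M. In E1 the difference no longer passed without parental replicate 2 or E1 replicate 2 (adjusted p = 0.0705 and 0.0540), the A call without parental replicate 2 or A replicate 2 (adjusted p = 0.0503 and 0.111), and the E2 call without parental replicate 1 and E2 replicate 1 together (adjusted p = 0.0505). Tlr3, a receptor for double-stranded RNA, rose in E1 (log2 fold change 0.97, SE 0.22, adjusted p = 0.00143) and E2 (log2 fold change 1.12, SE 0.21, adjusted p = 0.000281) under every alternative. Its rise in M (log2 fold change 0.66, SE 0.20, adjusted p = 0.0257) was lost without parental replicate 1, parental replicate 3 or M replicate 3 (adjusted p = 0.0850, 0.141 and 0.0834). Traf3 was the other gene lower in A, and Cgas the one lower in M. Myd88, an adaptor of other Toll-like receptors, fell in E2 (log2 fold change -1.29, SE 0.24, adjusted p = 0.0198) and A (log2 fold change -1.06, SE 0.43, adjusted p = 0.0339). Those calls were lost without parental replicate 3 or E2 replicate 3 (adjusted p = 0.0924 and 0.0879) in E2 and without parental replicate 3, A replicate 1 or A replicate 3 (adjusted p = 0.142, 0.0857 and 0.173) in A.

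Among the other interferon regulatory factors and their binding proteins, 8 of 9 were tested. E1 and E2 each had 1 higher and 1 lower, 12.5% each way. The shares of all genes were 7.77% higher and 7.35% lower in E1 and 9.14% and 8.8% in E2. A had 3 higher (37.5%, all genes 15.1%) and M 2 higher (25%, all genes 7.87%). Besides Irf3, Irf2bp2 rose in A (log2 fold change 0.55, SE 0.13, adjusted p = 0.00413) under every alternative, at 150 ± 10.8 CPM against 102 ± 13.3 (SD, n = 3). Irf2bpl fell in E1 (log2 fold change -0.50, SE 0.12, adjusted p = 0.0440) and E2 (log2 fold change -0.57, SE 0.09, adjusted p = 0.0194). The Irf2bpl calls were lost without parental replicate 1, parental replicate 3, E1 replicate 1, E1 replicate 2, E1 replicate 3, A replicate 3 or M replicate 3 (adjusted p = 0.114, 0.118, 0.130, 0.148, 0.0541, 0.0571 and 0.0533) in E1 and without parental replicate 1, parental replicate 3 or E2 replicate 2 (adjusted p = 0.0589, 0.0607 and 0.0559) in E2. All 13 negative regulators were tested. E1 had 3 higher (23.1%, all genes 7.77%) and 1 lower (7.69%, all genes 7.35%). E2 and A each had 1 higher and 1 lower, 7.69% each way. The shares of all genes were 9.14% higher and 8.8% lower in E2 and 15.1% and 14.9% in A. M had 2 higher (15.4%, all genes 7.87%). The 3 higher in E1 became 1 without parental replicate 2 or E1 replicate 1. The 2 higher in M became 0 without parental replicate 3 or M replicate 3 and 1 without parental replicate 1, and DESeq2 also called 1 lower there. Pias3, a SUMO ligase that inhibits Stat proteins, had 2.65, 1.65 and 0.693 CPM in the parental replicates and 3.35 to 7.26 CPM in the clones. Its log2 fold changes were 1.49 (SE 0.54, adjusted p = 0.00448) for E1, 1.53 (SE 0.57, adjusted p = 0.00308) for E2, 1.94 (SE 0.55, adjusted p = 0.000124) for A and 1.34 (SE 0.57, adjusted p = 0.00971) for M, all called. Of these only the M call was lost, without parental replicate 3 or M replicate 3 (adjusted p = 0.0725 and 0.0542). Ptpn2, a phosphatase of Jak kinases, fell in A (log2 fold change -1.06, SE 0.30, adjusted p = 0.000443) and Pias1 in E1 (log2 fold change -0.98, SE 0.12, adjusted p = 0.00107), both under every alternative. The Pias1 call in E2 (log2 fold change -0.57, SE 0.08, adjusted p = 0.0416) was lost without parental replicate 1, parental replicate 2, parental replicate 3, E2 replicate 1, E2 replicate 2, E2 replicate 3 or A replicate 1 (adjusted p = 0.0550, 0.0742, 0.130, 0.118, 0.0715, 0.0749 and 0.0533).

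The interferon-induced GTPases outside the 38 genes differed most between A and E1. Of 16 genes 11 were tested, and in A against the parental population 3 were called (Gbp4, Gbp8 and Gbp9), all higher (27.3%, all genes 15.1%). Gbp9 had 23.3, 20.5 and 21.7 CPM in A, 5.43, 4.10 and 2.39 in the parental replicates, 5.36, 7.57 and 8.17 in E1, 11.7, 9.29 and 9.24 in E2 and 6.57, 7.48 and 6.70 in M. Gbp4 had 13.95, 12 and 18.8 CPM in A, 2.18, 1.26 and 1.61 in the parental replicates, 3.99, 2.14 and 2.46 in E1, 9.21, 3.81 and 6.69 in E2 and 2.38, 2.55 and 4.08 in M. For both genes the 3 A libraries were the highest of the 15. Gbp4 rose in A (log2 fold change 3.11, SE 0.29, adjusted p = 1.36e-07) and E2 (log2 fold change 1.92, SE 0.43, adjusted p = 0.000222) under every alternative, and Gbp9 likewise in A (log2 fold change 2.45, SE 0.34, adjusted p = 3.75e-08) and E2 (log2 fold change 1.34, SE 0.36, adjusted p = 0.000368). The Gbp9 calls in E1 (log2 fold change 0.82, SE 0.39, adjusted p = 0.0225) and M (log2 fold change 0.80, SE 0.34, adjusted p = 0.0267) were lost without parental replicate 3, E1 replicate 2 or E1 replicate 3 (adjusted p = 0.158, 0.0789 and 0.111) and without parental replicate 2, parental replicate 3, M replicate 2 or M replicate 3 (adjusted p = 0.0517, 0.178, 0.0717 and 0.0568), in that order. Gbp4, Gbp8 and Gbp9 are related genes whose sequence identity was not measured here, and reads could be split among them.

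Irgm1, which regulates the immunity-related GTPases, fell in E1 (log2 fold change -1.50, SE 0.32, adjusted p = 0.00102) under every alternative, from 8.15 ± 2.72 to 2.82 ± 0.531 CPM (SD, n = 3). In A against E1, 7 of the 11 tested GTPases (63.6%, all genes 15%) were higher, with a median log2 fold change of 1.63 beside 0.02 for all genes, and 5 to 9 were higher over the alternatives. In A against the parental population Gbp2, of the 38 genes, was not called (log2 fold change -0.18, SE 0.41, adjusted p = 0.723), and Gbp3 was lower, as given above. The A libraries are also those with the higher Pdgfra level given above, and the part of that in these differences was not tested.

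**Figure D4:**
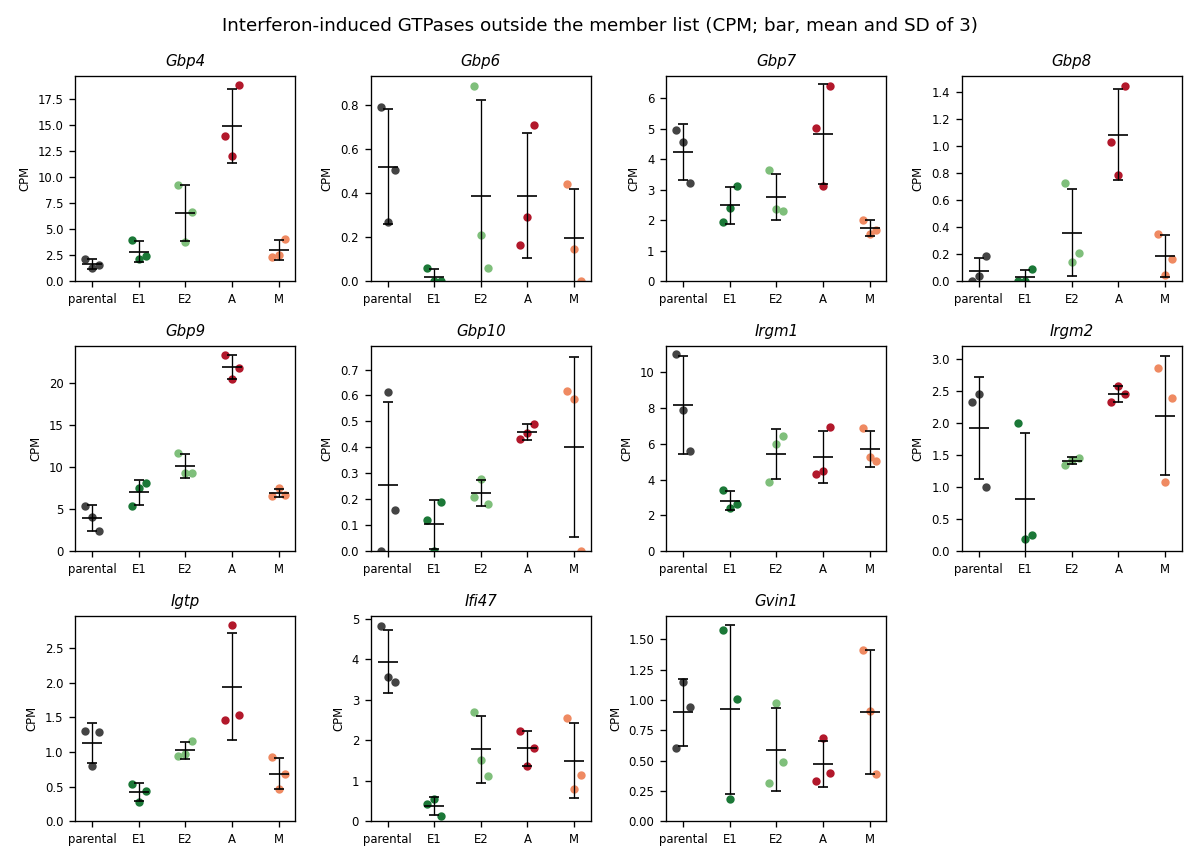
CPM of the 11 tested interferon-induced GTPases outside the 38 genes, with a panel per gene, a point per library and a bar for the mean and SD of 3. The 3 A points lie above the other 12 for Gbp4, Gbp8 and Gbp9, and the E1 points lie lowest for Irgm1 and Ifi47.

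A wider list of 79 further interferon-stimulated genes, of which 54 were tested, included more increases than decreases in A. In A against the parental population 14 (25.9%, all genes 15.1%) were called higher and 3 (5.56%, all genes 14.9%) lower, with a median log2 fold change of 0.31 beside 0.03 for all genes. Over the alternatives the counts were 9 to 16 higher and 2 to 4 lower, the lowest count of increases coming without parental replicate 3. E1 had 2 higher (3.7%, all genes 7.77%) and 6 lower (11.1%, all genes 7.35%). E2 had 5 each way (9.26%, all genes 9.14% higher and 8.8% lower), near the shares of all genes. M had 7 higher (13%, all genes 7.87%) and 3 lower (5.56%, all genes 6.28%). The 6 lower in E1 became 2 without E1 replicate 2 or 3, 3 without parental replicate 1 and 4 without E1 replicate 1. The 5 lower in E2 became 2 without E2 replicate 1 and 3 without parental replicate 1, parental replicate 2 or E2 replicate 3. The 3 lower in M became 1 without M replicate 1 or 3, 5 with the filter of at least 1 CPM in 3 libraries and 7 with DESeq2, which called 7 higher as well. Trim30a, a ligase that restrains Toll-like receptor signalling, had 0.929, 0.765 and 0.724 CPM in the parental replicates and 5.75, 7.14 and 6.67 in A. It rose in A (log2 fold change 2.92, SE 0.14, adjusted p = 1.35e-06) and M (log2 fold change 1.92, SE 0.12, adjusted p = 0.000703) under every alternative, and in E2 (log2 fold change 1.44, SE 0.33, adjusted p = 0.00734) with the call lost without E2 replicate 3 (adjusted p = 0.0799). Apol9b rose in each clone, by 0.99 (SE 0.38, adjusted p = 0.0123) in E1, 1.32 (SE 0.30, adjusted p = 0.00101) in E2, 1.52 (SE 0.32, adjusted p = 8.85e-05) in A and 1.52 (SE 0.40, adjusted p = 0.000264) in M on the log2 scale, which in E1 no longer passed without parental replicate 1, E1 replicate 1 or E1 replicate 2 (adjusted p = 0.0750, 0.0611 and 0.0595). Apol9b has a near-identical neighbour, Apol9a, and is uncertain.

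Mndal, a nuclear protein of the family that binds DNA, had 9.52, 14.8 and 10.1 CPM in the parental replicates, 3.39, 2.79 and 2.93 in E1, 2.55, 3.21 and 5.44 in E2, 12.5, 9.65 and 11.6 in A and 3.79, 5.47 and 5.24 in M. A lay within the parental range and the other clones below it. Mndal fell in E1 (log2 fold change -1.89, SE 0.22, adjusted p = 3.98e-05), E2 (log2 fold change -1.59, SE 0.38, adjusted p = 0.000188) and M (log2 fold change -1.23, SE 0.26, adjusted p = 0.00244), under every alternative.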

How the data were processed

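RNA of 5 populations of 4T1 cells was sequenced from a directional library preparation, per the labels' protocols. The authors deposited 1 table of read counts per gene for each library, not normalised, with Entrez gene identifiers. HISAT2, featureCounts and DESeq2 and the builds GRCm38 and mm10 are named in the submitters' processing notes. Their versions and the strand setting of the counting are not given in the sources used here. Whether reads in overlapping exons were left out or assigned to a gene is thus not known. Counts of near-identical copies could be lost or split. No row of the count tables was without a gene.

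The 38 genes and the lists of pathway genes and cell type markers were chosen with earlier results of these data known. Identifiers were matched to symbols through a RefSeq gene table on GRCm38.p6 (25275 of 27179), and exon lengths and overlaps came from GENCODE on GRCm38. Counts were fitted with edgeR 4.0.16 (R 4.3.3, limma 3.58.1) as deposited, with TMM scaling (factors 0.847 to 1.11), over all 15 libraries with population as the only term. Genes were kept with edgeR's filter (minimum count 10, minimum total 15), which left 12712, and robust quasi-likelihood tests were adjusted by Benjamini-Hochberg over them in each comparison. A call is an adjusted p under 0.05. Log2 fold changes use a prior count of 2, and their SE comes from the SDs of log2 CPM. CPM uses the TMM-scaled totals. The biological coefficient of variation was 0.255, and counting depth set a floor of 3 counts per population, 0.0318 to 0.0378 CPM. Intervals and floors cover counting error only. The script was tested on simulated counts.

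The genes given in each library are, by rule, those called for any difference among the populations with at least 5 CPM in the highest population (at most 14, by largest log2 fold change against the parental population). From each pathway list up to 3 called genes with at least 5 CPM were taken by largest log2 fold change, and up to 4 called genes for each pair of clones. Called genes outside the rule (Cmpk2, Rsad2, Usp18, Sp100, Oasl2, Gbp3, Herc6, Samhd1, Gbp8 and others named only in counts) were added after their values were seen. Alternatives were DESeq2 1.42.0, other scalings and filters, a replicate block, and leaving out each library. A fit without parental replicate 1 and E2 replicate 1 was added after seeing the data. The replicates are labelled biological, without saying that they came from separate thaws or cultures, so p-values measure the spread between these samples. No libraries held identical values. The authors' normalised tables and their table of comparisons were not used here.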

Additional observations from a re-analysis of the deposited data

How the results depend on the processing

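Of 55 calls among the 38 genes, 24 held in all 22 alternatives and none reversed direction. Of 43 calls of named pathway genes, 27 held in all. For the 38 genes, leaving out 1 library gave 5 to 12 called in E1 against parental, 5 to 8 in E2, 6 to 10 in A, 1 to 3 in M, 0 to 1 in E2 against E1, 5 to 10 in A against E1, 0 to 2 in M against E1, 4 to 7 in A against E2, 2 to 4 in M against E2, 4 to 7 in M against A and 15 to 20 for any difference. In M against parental the count of 1 became 2 without M replicate 2 or E1 replicate 3 and 3 without M replicate 1. In M against E1 it became 0 without E1 replicate 2 and 2 without M replicate 2.

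For the pathway lists, leaving out 1 library gave 10 to 19 in E1 against parental, 16 to 23 in E2, 23 to 33 in A, 10 to 20 in M, 0 to 0 in E2 against E1, 33 to 42 in A against E1, 1 to 10 in M against E1, 17 to 30 in A against E2, 1 to 7 in M against E2 and 15 to 25 in M against A. The count of 19 in E1 became 10 without E1 replicate 2 and 12 without E1 replicate 3, and that of 19 in M became 12 without parental replicate 3 and 10 without M replicate 3. In M against E1, 8 became 1 without E1 replicate 2, 2 without E1 replicate 3 or M replicate 3 and 5 without M replicate 1. In A against E2, 28 became 17 without A replicate 3, and in M against E2, 4 became 7 without parental replicate 1, 2 without E2 replicate 3 and 1 without M replicate 3.

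With a filter of at least 1 CPM in 3 libraries, 2 of the 38 genes were called in M against parental and 0 in E2 against E1. Without a filter, 2 were called in E2 against E1 and 3 in M against E1, and of pathway genes 2 in E2 against E1 and 7 in M against E2. DESeq2 called 3 in M against parental, 2 in E2 against E1, 3 in M against E1 and 5 in M against E2, and of pathway genes 2 in E2 against E1 and 7 in M against E2. Without parental replicate 1 and E2 replicate 1, a choice made after seeing the data, the counts were 0 in E2 against E1, 3 in M against E1 and 4 in A against E2, and of pathway genes 12 in E2 against parental and 1 in E2 against E1. The causes were not tested. With the replicate number as a block, 3 of the 38 genes were called in M against parental and 3 in M against E1, and of pathway genes 1 in E2 against E1 and 7 in M against E2. Deviations of same-numbered replicates were at most weakly correlated: over 30 pairs the correlation was -0.0579 to 0.213, mostly positive, and 4 pairs were over 0.1. Over all genes the block raised the number called in each pairwise comparison, for E1 against parental from 1922 to 2255. A weak shared deviation is thus not excluded. The numbers were not taken as pairing, since the labels do not say that equal numbers share a day or batch. Depth limits Irf7, Zbp1, Oas1a, Ifit3, Mx1 and Mx2 most.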
